A study of Mus musculus with 4 samples.

Results

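Ribosomal protein genes and their paralogs were examined in RNA from mouse testis. Members were the genes whose symbol follows the naming of cytosolic ribosomal proteins (Rpl and Rps with a number, the acidic stalk proteins Rplp0 to Rplp2, and Rpsa), together with paralogs such as Rpl10l, Rpl39l, Rps4l and Rpl22l1. The rule found 85 of 44509 named genes, of which 8 are paralogs and 77 are called canonical here. Rows with -ps in their symbol, which marks pseudogenes, were kept out. Rpl6l and Rps4l do not carry it and stayed in, although the annotation types both as pseudogenes. The filter of 1 FPKM (fragments mapped per kilobase of gene, scaled to library depth) in at least 2 libraries was passed by 84. The exception was Rpl6l, annotated as a processed pseudogene and at 0.12 FPKM or less in every library.

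The study compared testes of mice with oligozoospermia induced by busulfan, an alkylating agent toxic to spermatogonia, with testes of such mice treated with Cus-1, which the series title describes as a resin glycoside from a cuscutae extract. There were 2 libraries per group, named busulfan 1 and 2 and Cus-1 1 and 2 in order of submission, and every mouse had received busulfan. Strain, age, dose and time are not in the labels, nor is it said whether the libraries of a group came from separate animals, so the spread between them may be technical. Library titles begin with BPA and CUS2, which the labels do not explain, and the groups rest on the source label alone.

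Cytosolic ribosomes are built from a large subunit, whose proteins are named Rpl, and a small subunit, whose proteins are named Rps, in nearly equal numbers of each protein. In male meiosis the X chromosome is transcriptionally silenced, and several X-linked housekeeping genes have an autosomal copy that is expressed in germ cells. Rpl10l is such a copy of the X-linked Rpl10 and is needed for male meiosis in mice, and Rpl39l, the counterpart of Rpl39, forms part of a ribosome found in spermatocytes and spermatids.

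The coding sequences of 2 pairs are shown because the results turn on telling the copy from its X-linked partner. They are given 5′ to 3′ from the GENCODE M21 annotation of mm10, with capitals at the bases that differ within the pair. Rpl39 lies at chrX:37082520-37085402 on the minus strand and Rpl39l at chr16:10170226-10174911 on the plus strand. Both have a coding sequence of 156 bases, with 23 differences and a longest shared run of 38 bases.
Rpl39: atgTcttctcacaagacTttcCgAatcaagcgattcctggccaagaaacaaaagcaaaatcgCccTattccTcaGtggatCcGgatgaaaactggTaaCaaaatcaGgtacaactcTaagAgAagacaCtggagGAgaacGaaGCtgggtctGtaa
Rpl39l: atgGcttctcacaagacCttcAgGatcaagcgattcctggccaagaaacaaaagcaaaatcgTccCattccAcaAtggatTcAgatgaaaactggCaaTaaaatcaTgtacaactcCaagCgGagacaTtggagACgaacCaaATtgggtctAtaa

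Rpl10 lies at chrX:74270812-74273135 on the plus strand and Rpl10l at chr12:66283379-66284401 on the minus strand. The first 240 of 645 coding bases are shown, with 41 differences. Over the whole coding sequence 98 bases differed and the longest shared run was 23 bases.
Rpl10: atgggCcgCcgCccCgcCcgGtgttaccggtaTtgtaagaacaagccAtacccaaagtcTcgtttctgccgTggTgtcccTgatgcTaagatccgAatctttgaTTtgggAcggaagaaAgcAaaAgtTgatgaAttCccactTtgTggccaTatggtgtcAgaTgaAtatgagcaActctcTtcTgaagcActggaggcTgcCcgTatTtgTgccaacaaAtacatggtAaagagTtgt
Rpl10l: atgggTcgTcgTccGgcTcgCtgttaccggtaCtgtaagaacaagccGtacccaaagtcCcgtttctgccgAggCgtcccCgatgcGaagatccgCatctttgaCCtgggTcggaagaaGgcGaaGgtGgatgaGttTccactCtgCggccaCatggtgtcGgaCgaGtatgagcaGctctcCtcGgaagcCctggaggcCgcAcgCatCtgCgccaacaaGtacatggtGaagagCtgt

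The coding part of Rpl10l and of Rpl39l lies in 1 exon, against 6 exons for Rpl10 and 3 for Rpl39. For the other X-linked pairs, Rps4l and Rps4x were 80.1% identical over aligned coding bases and Rpl36al and Rpl36a 87.9%. The annotation gives no coding sequence for Rps4l, so the longest open reading frame of its transcripts was used. Rps27rt, in contrast, was identical to Rps27 over all 255 coding bases, so fragments of these genes cannot be told apart by their coding sequence.

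The summed FPKM was between 726041 and 742689 per library. Steps of low values put the depth at roughly 13.5 to 15.6 M fragments on transcripts of 1500 to 2500 bases. On transcripts of 600 to 1000 bases they put it at 10.3 to 11.6 M. Genes of the studied tissue were present in all libraries, with spermatocyte and spermatid lists higher and Sertoli, Leydig, macrophage and endothelial lists lower under Cus-1. Both Cus-1 values were above both busulfan values for 18 of 18 spermatocyte, 16 of 17 round spermatid and 18 of 18 elongating spermatid genes, beside 36.6% of all tested genes. They were below for 19 of 20 Sertoli, 7 of 12 Leydig, 12 of 14 macrophage and 7 of 9 endothelial genes, beside 31.7% of all tested genes. Nearer to those shares, 4 of 10 peritubular myoid genes were below and 1 above, and of 11 spermatogonial genes 5 were above and 4 below. Summed FPKM of 18 spermatocyte genes was 2178 and 3137 with busulfan and 5114 and 4544 with Cus-1. The 17 round spermatid genes summed to 446.5 and 660.3 against 1413 and 904 FPKM. For 18 elongating spermatid genes the sums were 4077 and 4469 against 14748 and 5913 FPKM, with Cus-1 1 far above Cus-1 2. Sertoli cell genes (20 genes) summed to 10902 and 8613 against 5293 and 6579 FPKM. Leydig cell genes (12 genes) summed to 27630 and 27209 against 13492 and 19896 FPKM, and 14 macrophage genes to 2788 and 2256 against 1466 and 1954. No gene of these lists was listed at 0. In tissue RNA, fewer cells of a type and less RNA per cell cannot be told apart, and the part of this shift in the values below was not tested.

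Canonical ribosomal protein genes differed little between the groups, and what difference there was lay mostly in Cus-1 1. Together they held 4.55% of the summed FPKM in each busulfan library, 3.96% in Cus-1 1 and 4.41% in Cus-1 2. Group means differed by -0.36 percentage points (exact two-sided permutation p = 0.333, the smallest that 2 libraries against 2 allow). Leaving out Cus-1 1 gave -0.14 points, and leaving out Cus-1 2 gave -0.59. Of the 76 tested, 49 had their lowest value in Cus-1 1, 15 in busulfan 1, 9 in Cus-1 2 and 3 in busulfan 2. The median log2 fold change (Cus-1 minus busulfan, on log2(FPKM + 1)) was -0.12 over the 76, against 0.04 over all 19837 tested genes. Leaving out Cus-1 1 moved it to -0.04, and leaving out Cus-1 2 to -0.21.

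No member passed a limma adjusted p of 0.05, which 0% of all tested genes passed. With a limma p below 0.05 before adjustment, 2 canonical genes were lower with Cus-1 and 0 were higher, where 9.96% of all tested genes were lower and 18% higher. Under quantile normalization the background was 2697 lower and 2831 higher genes, in place of 1975 and 3576, and 6 canonical genes were lower. Both Cus-1 libraries lay below both busulfan libraries in 34 of the 76 (44.7%) and above them in 10 (13.2%), beside 31.7% and 36.6% of all tested genes. By subunit, 19 of 46 large and 15 of 30 small subunit genes had both Cus-1 values at the bottom, with median log2 fold changes of -0.11 and -0.15.

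**Figure D1:**
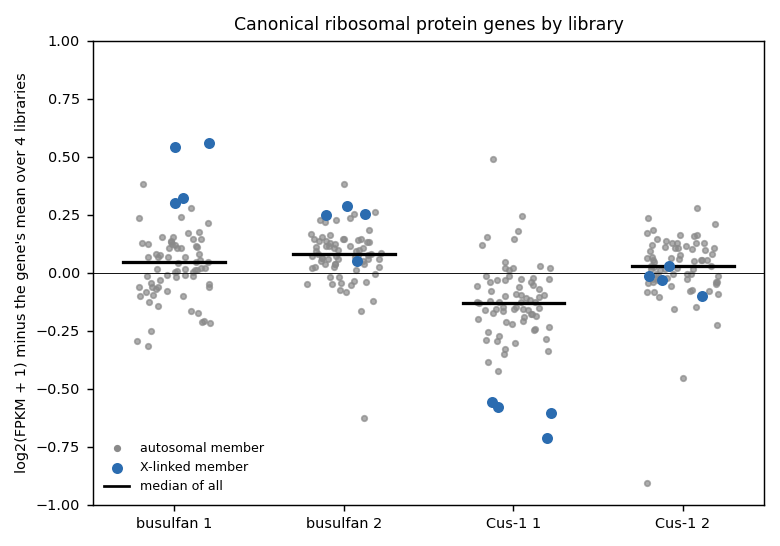
Each point is 1 of 76 canonical ribosomal protein genes; the vertical axis gives log2(FPKM + 1) minus the mean of that gene over the 4 libraries on the horizontal axis, and black lines are medians. The median is -0.13 in Cus-1 1 and between 0.03 and 0.08 elsewhere, and the 4 X-linked genes (blue) are all above 0 in both busulfan libraries and below -0.5 in Cus-1 1; Rps2 lies outside the axis in some libraries.

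The X-linked members stood at the low end. The mouse X chromosome carries 4 canonical members, and these ranked 1, 3, 4 and 5 from the most negative log2 fold change among the 76. In all 4, each Cus-1 value lay under each busulfan value, beside 31.7% of all tested genes and 61.2% of tested X-linked protein-coding genes. Their median was -0.59, against -0.11 over the 72 autosomal ones.

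Rps4x, a small subunit protein at chrX:102184941-102189394, was at 375 and 303 FPKM under busulfan against 154 and 237 FPKM under Cus-1 (log2 change of -0.81, SE 0.26, limma adjusted p = 0.158). The highest Cus-1 value was thus below the lowest busulfan value. Without Cus-1 1 its log2 fold change was -0.50, and the limma p before adjustment was above 0.05 then, and without either busulfan library. Rpl36a, a large subunit protein, was at 221 and 219 FPKM under busulfan against 122 and 175 FPKM under Cus-1 (-0.59, SE 0.22, limma adjusted p = 0.171). Its groups did not overlap either. The log2 fold change was -0.33 without Cus-1 1, and its limma p before adjustment was below 0.05 only with both busulfan libraries and Cus-1 1 in the fit, and not with no filter or with copies summed.

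Rpl10, a large subunit protein at the tRNA-facing side of the ribosome, was at 377 and 268 FPKM under busulfan against 173 and 256 FPKM under Cus-1. The gap between busulfan 2 and Cus-1 2 was small, and the log2 fold change of -0.59 (SE 0.28, limma adjusted p = 0.216) was -0.35 without busulfan 1 and -0.31 without Cus-1 1. Rpl39, a very small protein of the peptide exit tunnel, was at 167 and 159 FPKM under busulfan against 87.7 and 137 FPKM under Cus-1 (-0.57, SE 0.24, limma adjusted p = 0.196). In all 4 genes Cus-1 1 had the lowest value, and for Rpl39 the log2 fold change was -0.25 without that library and -0.89 without Cus-1 2.

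A lower level was also seen over the X chromosome at large. The 570 tested X-linked protein-coding genes showed a median log2 fold change of -0.42, and 61.2% of them had both Cus-1 values under both busulfan values. For the 12901 autosomal ones the median was -0.06 and the share 38%. The difference between the chromosomes was not tested, since genes are not replicates.

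**Figure D2:**
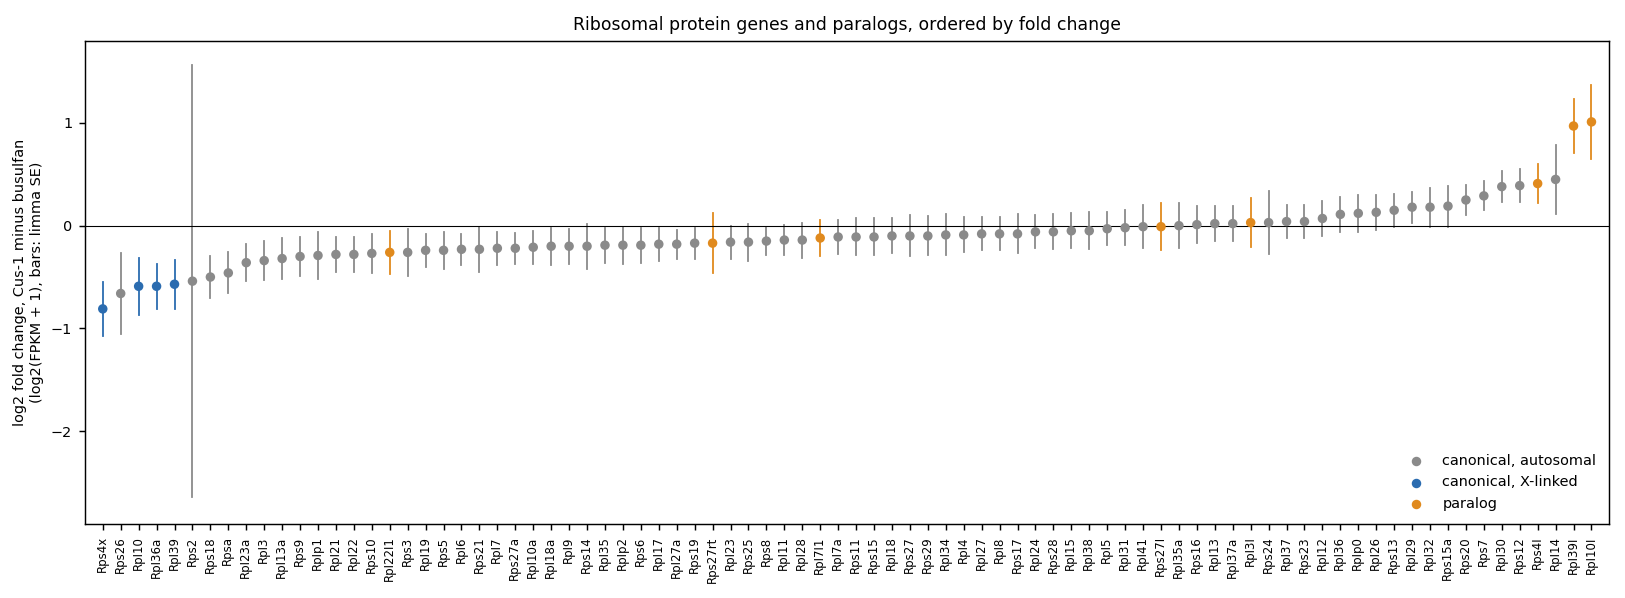
The 84 tested members on the horizontal axis, ordered by the log2 fold change on the vertical axis (Cus-1 minus busulfan, points, with limma standard errors as bars). The 4 X-linked canonical genes (blue) lie between -0.81 and -0.57, and the paralogs Rpl39l and Rpl10l (orange) at 0.97 and 1.01 are the highest; the long bar is Rps2.

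Of the autosomal counterparts of the X-linked genes, Rpl10l, Rpl39l and Rps4l had both Cus-1 values above both busulfan values, and Rpl36al overlapped. These 3 are also the only ones so placed among the 8 paralogs of the name rule (37.5%, beside 36.6% of all tested genes). Below lay 0 of the 8, beside 31.7% of all tested genes. With a limma p below 0.05 before adjustment 2 of 8 were higher (25%, beside 18% of all tested genes). The counts of higher paralogs were thus near the share over all genes. Rpl10l was at 54.9 and 110 FPKM under busulfan against 181 and 139 FPKM under Cus-1. Both Cus-1 values were above both busulfan values, although the 2 busulfan libraries differed from each other more than Cus-1 2 differed from busulfan 2. The log2 fold change was 1.01 (SE 0.36, limma adjusted p = 0.167). It was 0.52 without busulfan 1 and 1.51 without busulfan 2, and the limma p before adjustment was above 0.05 without busulfan 1, without Cus-1 1 and with no filter on low values.

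Rpl39l was at 107 and 173 FPKM under busulfan against 282 and 255 FPKM under Cus-1 (log2 change of 0.97, SE 0.26, limma adjusted p = 0.152). Here the Cus-1 libraries lay close together and clear of both busulfan libraries. Without busulfan 1 the log2 fold change was 0.63 and the limma p before adjustment was above 0.05. For Rpl10l and Rpl39l the libraries ranked in the same order, busulfan 1 lowest, then busulfan 2, then Cus-1 2, with Cus-1 1 highest, and the summed spermatocyte genes given above had that order too. Whether the germ cell content of the tissue gave it was not tested.

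Set beside their X-linked partners, Rpl10l and Rpl39l took a larger part of the pair with Cus-1. Rpl10l made up 12.7% and 29.2% of the summed FPKM of Rpl10 and Rpl10l with busulfan and 51.1% and 35.2% with Cus-1. Rpl10-ps3, a copy identical to Rpl10 over the aligned part of its coding sequence (at least 80% of it), stood at 290 and 304 FPKM under busulfan against 141 and 223 FPKM. With such copies added to both genes, Rpl10l made up 7.68% and 16.2% under busulfan against 36.5% and 22.5% under Cus-1, less than Rpl10 and its copies in every library. Rpl39l made up 39% and 52.1% of its pair with busulfan and 76.3% and 65.1% with Cus-1, and with copies added 37.9% and 50.4% against 75.6% and 64.1%. The log2 ratio of paralog to partner, on values with 1 FPKM added, averaged -2.01 ± 1.05 under busulfan against -0.41 ± 0.66 under Cus-1 (SD, n = 2) for Rpl10l, a difference of 1.61 (0.87 without busulfan 1 and 1.14 without Cus-1 1). For Rpl39l it averaged -0.26 ± 0.54 and 1.28 ± 0.55 (SD, n = 2), a difference of 1.54. The single libraries were at -0.64 and 0.12 under busulfan against 1.67 and 0.90 under Cus-1, so busulfan 1 and Cus-1 1 widened it. The exact two-sided permutation test over libraries gave p = 0.333 for both ratios, the smallest value that 2 libraries against 2 allow, and 0.6 after Benjamini-Hochberg adjustment over the 9 pairs compared.

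**Figure D3:**
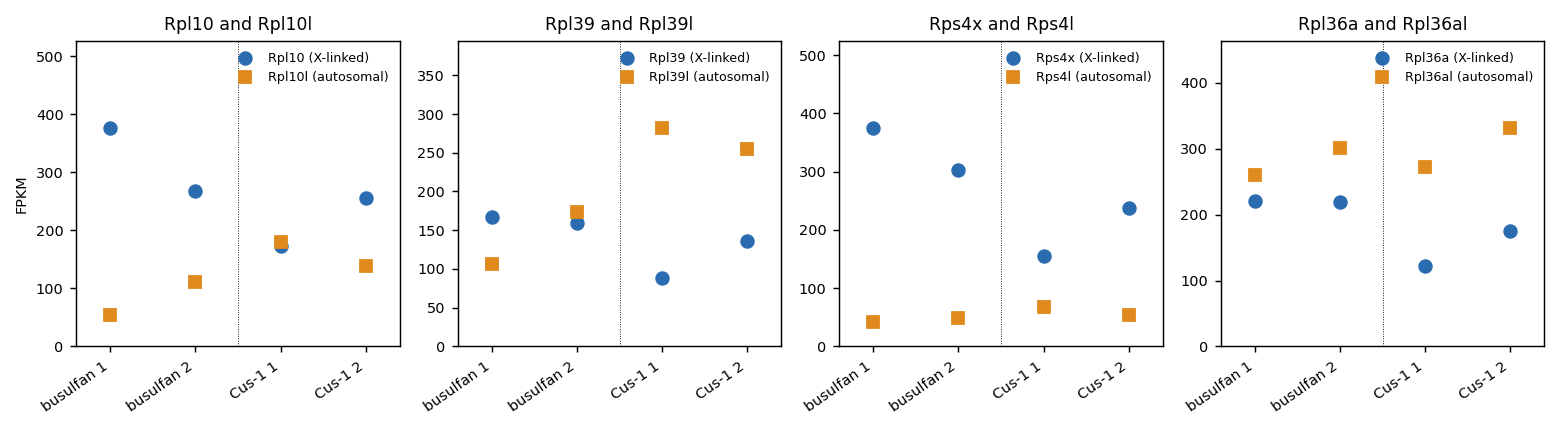
FPKM (vertical axes, from 0) of each X-linked ribosomal protein gene (blue circles) and its autosomal copy (orange squares) in the 4 libraries on the horizontal axes. Rpl39l lies below Rpl39 in busulfan 1 (107 against 167 FPKM) and above it in busulfan 2 (173 against 159 FPKM) and in both Cus-1 libraries (282 against 87.7 and 255 against 137 FPKM), while Rps4l stays below Rps4x in all 4 libraries.

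Rps4l, a copy of Rps4x on chromosome 6 (148354656 to 148355598) that the annotation types as a transcribed processed pseudogene, was at 41.7 and 48.9 FPKM under busulfan against 67.8 and 53.3 FPKM under Cus-1. Its groups did not overlap, with a log2 fold change of 0.41 (SE 0.19, limma adjusted p = 0.214), and 0.24 without Cus-1 1. It held 10% and 13.9% of its pair with busulfan and 30.5% and 18.4% with Cus-1. Rpl36al, the counterpart of Rpl36a on chromosome 12, with 1 coding exon against 5, falls outside the name rule and was set beside its partner. It was at 261 and 301 FPKM under busulfan against 272 and 332 FPKM under Cus-1, so the groups overlapped, and its log2 fold change of 0.10 (SE 0.18) was -0.04 without Cus-1 2.

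Added up, the 4 X-linked genes were at 1140 and 949 FPKM under busulfan against 536.6 and 805 FPKM under Cus-1, and their 4 autosomal copies at 464.5 and 634.2 against 802.4 and 778.8 FPKM. The sum of all 8 was 1604 and 1583 FPKM with busulfan and 1339 and 1584 FPKM with Cus-1. The autosomal copies made up 29% and 40.1% of it with busulfan and 59.9% and 49.2% with Cus-1. On these rows the total differed little between 3 of the libraries, with Cus-1 1 below them. That did not hold with near-identical copies added, of which Rpl10-ps3 and Rpl36a-ps2 held nearly all of the signal. The X-linked sum was then 1784 and 1601 FPKM under busulfan against 840 and 1302 FPKM under Cus-1, and the total 2250 and 2235 against 1642 and 2081 FPKM, lower in both Cus-1 libraries. The autosomal counterparts made up 20.7% and 28.4% of that total against 48.9% and 37.4%. Copies of Rpl36al were not searched. These sums were formed after the values were seen.

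The remaining paralogs overlapped between the groups. Rpl22l1, the paralog of the RNA-binding protein Rpl22, was at 126 and 163 FPKM under busulfan against 105 and 136 FPKM under Cus-1 (log2 change of -0.26, SE 0.21). Rpl22 itself did not overlap, at 397 and 410 FPKM under busulfan against 303 and 365 FPKM (-0.28, SE 0.17), and the log2 ratio of the 2 genes differed by 0.02 between the groups. Without Cus-1 1 the log2 fold change was -0.07 for Rpl22l1 and -0.15 for Rpl22, and for Rpl22l1 it was -0.08 without busulfan 2 and -0.44 without busulfan 1 or Cus-1 2. Rps27l, a p53-responsive paralog of Rps27, was at 248 and 304 FPKM under busulfan against 233 and 321 FPKM under Cus-1 (-0.01, SE 0.23).

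Rpl7l1, which acts in ribosome assembly, had 51.5 and 40.1 FPKM under busulfan against 42.4 and 41.1 FPKM under Cus-1. Its partner Rpl7 had 383 and 374 against 304 and 348 FPKM (-0.22, SE 0.16). Rpl3l, known from striated muscle, stayed at 0.99 to 1.14 FPKM in all libraries, near the filter, while Rpl3 had 164 and 136 FPKM under busulfan against 106 and 132 FPKM (-0.34, SE 0.19). Without Cus-1 1 the values were -0.12 for Rpl7 and -0.18 for Rpl3, and Rpl3 was at -0.20 without busulfan 1. Rps27rt was at 31.8 and 18.7 FPKM against 24.2 and 19.3 FPKM, values that are uncertain because of its identity with Rps27. The log2 fold changes of Rps27l, Rpl7l1, Rpl3l and Rps27rt changed sign when 1 or 2 of the single libraries were left out in turn, and that of Rpl3l also under both other scalings, so no direction is given for these genes.

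Among the autosomal canonical members Rps26 had the most negative value on its own row. Rps26, a small subunit protein near the mRNA exit channel, was at 202 and 217 FPKM under busulfan against 197 and 88.4 FPKM under Cus-1 (log2 change of -0.66, SE 0.39, limma adjusted p = 0.289). Cus-1 1 lay just under busulfan 1, and the log2 fold change was -0.09 without Cus-1 2. Leaving out Cus-1 1 gave -1.24. Copies held 77.4% of the Rps26 family, which was at 816 and 875 FPKM under busulfan against 738 and 684 FPKM, a log2 fold change of -0.25. The most abundant members by mean FPKM were Rpl41, Rps27, Rps24, Rps14 and Rpl13a. Rpl41, a very short protein, had 1114 and 1293 FPKM under busulfan against 1139 and 1240 FPKM, Rps27 had 1231 and 1179 against 1064 and 1189 FPKM, and Rps14 had 1261 and 1140 against 945 and 1157 FPKM. Of the 5 only Rpl13a separated the groups, at 1188 and 1285 FPKM under busulfan against 1032 and 945 FPKM under Cus-1 (-0.32, SE 0.20, limma adjusted p = 0.298).

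The 10 canonical genes that were higher in both Cus-1 libraries differed by at most 0.39 on the log2 scale. Rps12 was at 49.9 and 59.1 FPKM under busulfan against 70.8 and 72.3 FPKM under Cus-1 (log2 change of 0.39, SE 0.16, limma adjusted p = 0.182). With its copies, the Rps12 family was at 95.4 and 61.5 against 93.6 and 90.6 FPKM, so the groups overlapped and the log2 fold change was 0.26. Rps7 was at 47.1 and 51.5 against 60.8 and 60.1 FPKM (0.29, SE 0.14), and Rps20, near the mRNA entry of the small subunit, at 60.2 and 67.8 against 76.0 and 76.3 FPKM (0.25, SE 0.15). Rpl32 was at 727 and 807 against 829 and 913 FPKM (0.18, SE 0.19). The Rpl32 groups were separated by a gap that was smaller than the spread within either group. Its log2 fold change was 0.11 without busulfan 1 or Cus-1 2, and 0.08 when scaled without the 100 most abundant genes. For Rps20 it was 0.16 without busulfan 1, and under quantile normalization it was 0.12 for Rps20 and 0.19 for Rps7. Rpl30, the fifth gene named at this end, is given with its copies.

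Mean FPKM of the canonical members ran from 17.9 for Rpl12 to 1196 for Rpl41 with a median of 360. Ribosomal protein genes have many processed copies in the genome. A search of the annotation for transcripts at least 95% identical over at least 80% of a member's coding sequence found 558 copies, of which 234 had a row in the table, belonging to 67 members. Gene type was not a condition of the search, so a match need not be a processed copy, and Wdr89 was counted for Rplp2. For 22 members more than 50% of the FPKM of the family, member and copies together, stood in the copies. Rps18, chosen after its values were seen, had 30.4 to 54.0 FPKM on its own row and 93.2% of the family in its copies. Rps20 had 89.5% there.

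Division between a member and its copies differed from library to library. Rps24 was at 903 and 932 FPKM in busulfan 1 and Cus-1 1, where the copy Rps24-ps3 was at 495 and 542 FPKM. It was at 1330 and 1344 FPKM in busulfan 2 and Cus-1 2, where that copy was at 0.59 and 1.83 FPKM. The highest library was 1.49 times the lowest for Rps24 alone and 1.11 times for the family. Rps2, chosen after its values were seen, had 619 and 13.4 FPKM under busulfan against 16.7 and 237 FPKM under Cus-1, a range of 46.4 times, and its 8 matched copies did not make this up (43.5 times for the family).

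Directions of some members depended on this division. Rpl30 was higher with Cus-1 on its own row, at 243 and 253 against 314 and 334 FPKM (log2 change of 0.38, SE 0.15). Its copies, mainly Gm12191, were at 424 and 454 FPKM under busulfan against 31.0 and 81.1 FPKM under Cus-1. Summed, the Rpl30 family was at 668 and 707 FPKM against 345 and 415 FPKM, a log2 fold change of -0.86, so the sign turned. Rpl14 and Rpsa were also chosen after their values were seen. Rpl14 went from 0.45 alone to -0.58 with its copy Rpl14-ps1, and Rpsa from -0.46 to 0.16 through Rpsa-ps10, which was listed at 0 in both busulfan libraries and stood at 0.12 and 190 FPKM with Cus-1.

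Taking values to 2 decimals, 7 of the 64 tested canonical members with copies changed sign when summed. The X-linked genes kept their direction, with log2 fold changes of -0.67 for Rpl10, -0.67 for Rpl36a, -0.60 for Rpl39 and -0.81 for Rps4x. Over all 76 the median was -0.17, and 3 were lower with a limma p below 0.05 before adjustment. Beside them, 1969 of all 19768 genes tested with copies summed were lower by that measure, and their median was 0.04. This search was added after the data were seen, and identical copies with the same value on several rows were each counted.

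**Figure D4:**
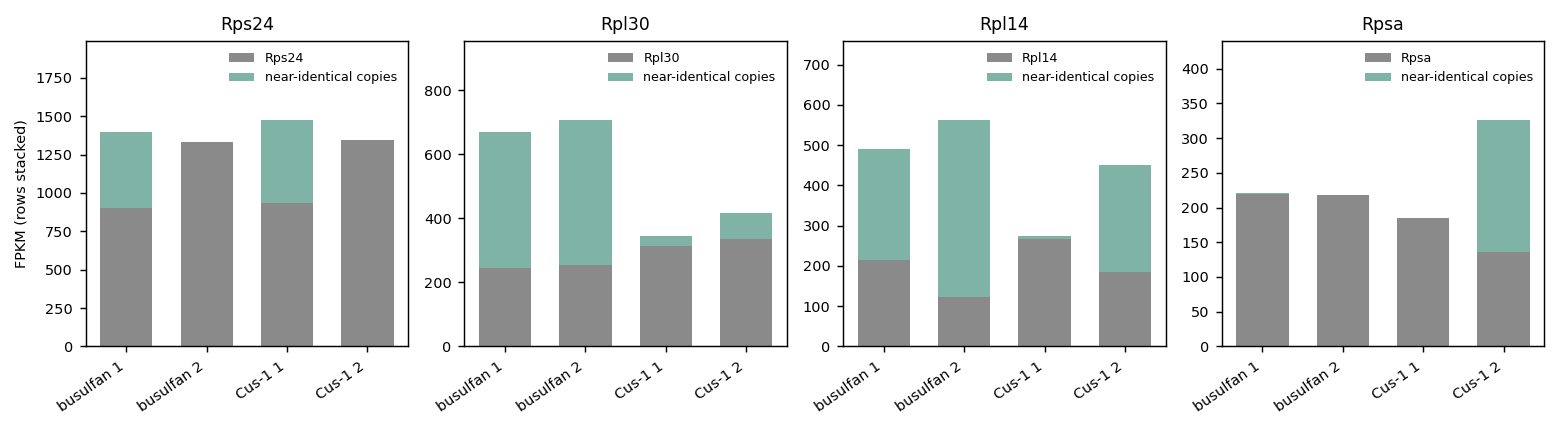
Stacked bars give FPKM (vertical axes, from 0) on the row of a ribosomal protein gene (grey) and on the rows of its near-identical copies (green) in the 4 libraries on the horizontal axes. For Rps24 the total is 1330 to 1475 FPKM while the copies range from 0.59 to 543 FPKM, and for Rpl30 the copies are at 424 and 454 FPKM with busulfan against 31.0 and 81.1 FPKM with Cus-1.

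Many mRNAs of ribosomal proteins begin with a C followed by a run of pyrimidines, the TOP element, through which mTOR and LARP1 control their translation. RefSeq start sites (GRCm38.p6) were found for 56 canonical members. The 50 bases after each start were read in the direction of transcription, without regard to splicing. Of the 56, 49 (87.5%) held a C there followed by at least 4 bases that were each C or T. That held for 51.6% of all 27025 genes with a start. A short window reaching a few bases to either side of the start site was also searched. It held such a run in 26 of the 56 (46.4%), in 3 of 7 paralogs and in 18.5% of all genes. A run found there need not begin at the first transcribed base. Within 50 bases, of 7 paralogs with a start 5 held such a run, among them Rpl39l, while Rpl10l did not. Windows of 300 bases around the start held a median of 21 CpG in canonical members, 13 in Rpl10l, 17 in Rpl39l and 7 over all genes.

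Other genes of ribosome production and translation differed in direction from list to list. Of 48 ribosome biogenesis genes, 5 were higher (10.4%) and 3 lower (6.25%) with a limma p below 0.05 before adjustment, below the 18% and 9.96% of all tested genes (median log2 fold change 0.06). Npm1 and Ncl, nucleolar proteins and the most abundant of the list, differed by 0.07 (SE 0.17) and -0.06 (SE 0.14) on the log2 scale. Mrto4, an assembly factor of the large subunit stalk, was at 31.6 and 44.4 FPKM under busulfan against 76.7 and 66.9 FPKM under Cus-1 (0.92, SE 0.21, limma adjusted p = 0.152). Among 20 genes of RNA polymerase I and its factors, 1 was higher, Polr1c (0.48, SE 0.14), and 1 lower, 5% each beside the same 18% and 9.96%, with a median of -0.07. Polr1d and Polr2k, the most abundant of that list, overlapped between the groups (0.17, SE 0.16, and 0.10, SE 0.21).

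Of 41 translation initiation factors, 10 were higher (24.4%, beside 18% of all tested genes) and 2 lower (4.88%, beside 9.96%) by the same measure, with a median of 0.16. For 23 of the 41 (56.1%, beside 36.6% of all tested genes) both Cus-1 values lay above both busulfan values. They lay below for 7 (17.1%, beside 31.7%). Pabpc1, the poly(A)-binding protein, was at 553 and 775 FPKM under busulfan against 1217 and 1023 FPKM under Cus-1 (0.77, SE 0.25). Pabpc6, a testis member of that family, was at 71.7 and 90.8 against 156 and 137 FPKM (0.85, SE 0.18, limma adjusted p = 0.152). Neither overlapped. Eif1, which guides start codon choice, had 260 and 290 against 323 and 296 FPKM (0.17, SE 0.16). Of 9 tested elongation factors 1 was higher with a limma p below 0.05 before adjustment (11.1%, beside 18%). This was Eif5a2, at 2.43 and 2.79 against 4.52 and 4.16 FPKM, while Eef1a1, the most abundant, overlapped at 2108 and 2058 against 1924 and 2061 FPKM. Eef2, the translocation factor, had 601 and 541 against 629 and 609 FPKM (0.12, SE 0.17).

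Among 15 tested genes of mTOR and TOP mRNA control, 2 were higher (13.3%) and 1 lower (6.67%) by that measure, again under the 18% and 9.96% of all tested genes (median -0.18). Both Cus-1 values lay below both busulfan values for 9 of the 15 (60%, beside 31.7% of all tested genes) and above them for 3 (20%, beside 36.6%). The higher ones were Larp1, which binds TOP mRNAs, at 50.7 and 59.1 against 89.5 and 74.6 FPKM (0.57, SE 0.17), and its relative Larp1b at 101 and 125 against 197 and 156 FPKM (0.63, SE 0.20). Cnbp, which binds TOP mRNAs too, had 210 and 211 against 180.0 and 205 FPKM (-0.13, SE 0.15). The 5 ribosomal proteins and subunit-bound factors outside the name rule had a median of -0.07. Rack1, a scaffold on the small subunit, did not overlap, at 243 and 227 FPKM under busulfan against 166 and 205 FPKM (-0.35, SE 0.17), while Rps3a1 overlapped at 484 and 514 against 335 and 490 FPKM. No gene of these lists passed the adjusted threshold.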

How the data were processed

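RNA of 4 mouse testis libraries was measured by sequencing. The authors deposited 1 table of FPKM values per gene and library, printed to 2 decimals. Per the submitters' processing notes, coordinates refer to mm10. How reads were aligned, counted and filtered, with which annotation and strand setting, is not given in the sources used here. Each column was matched to a sample through its library name.

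Of 45536 rows with values, 910 without a gene name (0.641% to 0.688% of the summed FPKM) were left out. For 115 symbols on several rows the row with the highest mean was used. The 19837 genes reaching 1 FPKM in 2 or more libraries were fitted with limma 3.58.1 in R 4.3.3 (trend, empirical Bayes) on log2(FPKM + 1). P-values were adjusted over all 19837 by the Benjamini-Hochberg method. This scale understates changes of low genes. The fit was tested on simulated data. With 2 libraries against 2 an exact permutation test cannot go below 0.333. Depth was estimated from the lowest values of genes with 1 annotated transcript of 1500 to 2500 bases. In transcripts of 600 to 1000 bases the same step was larger, 86 to 97 FPKM times bases against 64 to 74, so levels of short and long genes are not strictly comparable. Copies were searched with blastn 2.17.0 in GENCODE M21 transcripts.

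Members and lists were chosen with earlier results of these data known. Named members were all paralogs and partners, the X-linked members, the 5 most abundant canonical members and, among those whose groups did not overlap, the 5 with the most positive and the 5 with the most negative fold change. Of each pathway list the 2 most abundant genes and the 1 with the smallest p were named. Alternatives were another pseudocount (0.1), no filter or a filter of 5 FPKM, quantile normalization, scaling without the 100 most abundant genes, and leaving out each library. Summing near-identical copies was added after seeing the data. A lone library left in a group is assumed to vary like the other group.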

Additional observations from a re-analysis of the deposited data

How the results depend on the processing

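Canonical members that were lower with a limma p below 0.05 before adjustment numbered 2 in the fit reported, 1 with no filter on low values, 6 under quantile normalization and 5 when scaled without the 100 most abundant genes. Leaving out single libraries gave 0 to 5. Canonical members with a higher level numbered 0, and 1 with a pseudocount of 0.1 and with no filter. Their median log2 fold change of -0.12 was -0.11 with no filter, -0.15 under quantile normalization, -0.22 when scaled without the 100 most abundant genes, -0.17 with copies summed, and -0.21 to -0.04 when single libraries were left out. All tested genes had a median of 0.04, which was -0.06 under quantile normalization and -0.04 under the other scaling. Their counts of higher and lower genes there were 2831 and 2697, and 2951 and 2719, against 3576 and 1975. With no filter the counts were 4173 and 2340 of 44440 genes, and with a pseudocount of 0.1 they were 3436 and 1961. Without Cus-1 1, 7 genes in all and 0 canonical ones passed the adjusted threshold. With a library left out the counts before adjustment ran from 1159 and 426 (without busulfan 1) to 3821 and 1996 (without Cus-1 2). The difference in share of summed FPKM was -0.89 points when the 100 most abundant other genes were taken out of the denominator. The cause was not tested. Rpl30 turned to -0.86 with copies summed, by the construction of that sum. Of the 27 named members 19 kept their sign in all 10 alternatives. No paired analysis was possible because the labels give no number that pairs libraries across the groups. With 2 libraries a group, precision rests on the spread between so few libraries.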

Other observations

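Mitochondrial ribosomal protein genes, which serve the separate ribosome of that organelle and were not part of the name rule, were spread in both directions. Among 78 tested Mrpl and Mrps genes, both Cus-1 values lay above both busulfan values in 24 (30.8%, beside 36.6% of all tested genes) and below them in 26 (33.3%, beside 31.7%), with a median log2 fold change of -0.01 and a summed FPKM of 3326 and 3614 with busulfan and 3418 and 3552 with Cus-1. This list was added after the data were seen.

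Some rows of ribosomal protein copies were present in busulfan 1 and Cus-1 1 and absent or nearly so in busulfan 2 and Cus-1 2. Besides Rps24-ps3, Rps3a2 was at 37.1 and 26.1 FPKM and Rps3a3 at 58.4 and 42.1 FPKM in the former libraries, and both were listed at 0 in the latter. Rpl17-ps5 was listed at 0 in both busulfan libraries and stood at 29.3 and 151 FPKM with Cus-1. These rows were chosen after their values were seen.

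Utp14b, an autosomal copy of the X-linked ribosome assembly gene Utp14a that is needed in spermatogenesis, was at 3.39 and 4.43 FPKM under busulfan against 6.14 and 4.47 FPKM under Cus-1 (log2 change of 0.36, SE 0.26, limma adjusted p = 0.365), and Utp14a overlapped at 8.17 and 8.11 against 9.63 and 7.32 FPKM. The Utp14b groups were apart by a narrow gap between busulfan 2 and Cus-1 2.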
